A study of Rattus norvegicus with 2 samples.

Results

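Immediate early genes are the first genes that neurons switch on when they fire, and 10 of them are described here: Fos, Fosb and Junb, Egr1, Egr2 and Egr4, Nr4a1 and Nr4a3, Npas4, and Arc. They were taken by gene name from the non-control probes of rat expression arrays. Of the 10 genes, 9 matched a probe, with 11 probes in all, and Fosb matched none, so its level is not analysed here. On both arrays 8 of them were well above background, out of 14177 genes measured on both arrays in the whole series.

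The arrays read RNA of the paraventricular nucleus, the part of the hypothalamus that drives the adrenal stress axis and releases vasopressin and oxytocin, in male Sprague Dawley rats aged 12 weeks. The control array held RNA of offspring whose mothers had received vehicle. The dexamethasone array held RNA of offspring whose mothers had received 200 µg/kg of dexamethasone in the third trimester. Dexamethasone is a synthetic hormone that acts on the glucocorticoid receptor. The exposure was thus before birth and the measurement in adult life. Each group had 1 array, so no test of the treatment was possible, and every difference below is between these 2 arrays with no replicate check. The sources used here do not say if an array read 1 rat or pooled rats.

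Firing lets calcium into a neuron through glutamate receptors and voltage-gated channels, and kinases then act on factors already bound at these genes, chiefly CREB at the cAMP response element (CRE) and SRF at the CArG box. Because their transcription needs no new protein these RNAs appear early, and most of them also decay fast. Most members encode transcription factors that act on later genes, while Arc encodes a protein that works at the synapse. In the paraventricular nucleus Fos is widely used as a sign that neurons have been active, after stress or salt loading for example.

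The promoters are shown because CREB and SRF are known to act through such elements. Motifs were searched in the 250 bases before the gene start. The set of RefSeq promoters used (GRCr8 build) held 7 members, namely Fosb, Junb, Egr1, Egr2, Egr4, Nr4a1 and Npas4. It lacked Fos, Arc and Nr4a3, so their promoters were not searched. The core of the CRE, CGTCA on either strand, was found in 5 of the 7, with 4 matches in Nr4a1, 2 in Egr1, 2 in Egr4, 1 in Egr2 and 1 in Junb, against 19.0% of 27457 promoters of the same length. The CArG box, by its usual definition and on either strand, was found in Egr1 (2 matches) and Egr2 (1 match), against 1.5% of all promoters. Shares differ among genes measured on both arrays: of 11556 with a promoter in the set, 3022 held a CRE core and 135 a CArG box. The full palindrome TGACGTCA, which contains the core, was in none of the 7 (1.70% of all promoters). Of the sites that the members' own products bind, the AP-1 site TGANTCA and the Nr4a site AAAGGTCA were also in none of the 7 (6.36% and 1.11% of all promoters). The Egr site, by its usual definition, was in Nr4a1 alone (2.94% of all promoters). A match is a run of letters and not evidence of binding. The stretches below run 5′ to 3′ along each gene, with CRE cores and CArG boxes in capitals and positions counted back from the gene start.
Egr1 (chr18:26736933-26737026, + strand, bases -145 to -52): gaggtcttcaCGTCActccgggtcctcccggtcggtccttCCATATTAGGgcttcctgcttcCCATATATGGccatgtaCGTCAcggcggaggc
Egr2 (chr20:21054493-21054534, - strand, bases -93 to -52): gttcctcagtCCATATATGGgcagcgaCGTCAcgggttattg
Egr4 (chr4:119607913-119608005, - strand, bases -188 to -96): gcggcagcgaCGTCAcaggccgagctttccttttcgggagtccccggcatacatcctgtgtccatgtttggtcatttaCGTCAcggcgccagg
Nr4a1 (chr7:134259888-134260099, + strand, bases -250 to -39): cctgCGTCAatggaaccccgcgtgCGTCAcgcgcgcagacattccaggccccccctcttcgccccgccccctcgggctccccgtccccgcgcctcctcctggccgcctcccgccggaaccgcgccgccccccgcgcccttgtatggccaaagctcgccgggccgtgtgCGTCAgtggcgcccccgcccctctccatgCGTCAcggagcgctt
Junb (chr19:40080961-40080985, + strand, bases -165 to -141): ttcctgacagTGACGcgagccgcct

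In Egr1 a CArG box and a CRE core lay at bases -83 and -66, and the box and core of Egr2 lay at the same distances. Egr4 carried 2 CRE cores and no CArG box in this window, and Nr4a1 4 CRE cores and no CArG box.

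Across the family the dexamethasone array was brighter. Of the 8 measured members, 6 exceeded a 2-fold increase over the control array and 0 a 2-fold decrease, and all 8 were above 0 on the brightest probe (51.2% of all genes were), although Npas4 was just below 0 with normexp, another background correction. The same increase was met by 3.37% of all 14177 genes and the decrease by 2.38%. At 4-fold, 2 of the 8 members qualified, against 0.832% of all genes. The median difference of the 8 was 1.34 on the log2 scale (2.53-fold), while that of all genes was 0.0083. All differences are log2 processed signal after each array's 75th percentile was set to 0, dexamethasone minus control, and 2-fold is a rule of size and not a test. In such bulk RNA, more cells of a type and more RNA per cell cannot be told apart. Between the same arrays the summed scaled signal of cortex and striatum neuron markers was 6.55 (control) against 69.7, that of thalamic markers 115 against 63.5 and that of blood cell markers 66.6 against 184, and their part in the members' differences was not tested.

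**Figure D1:**
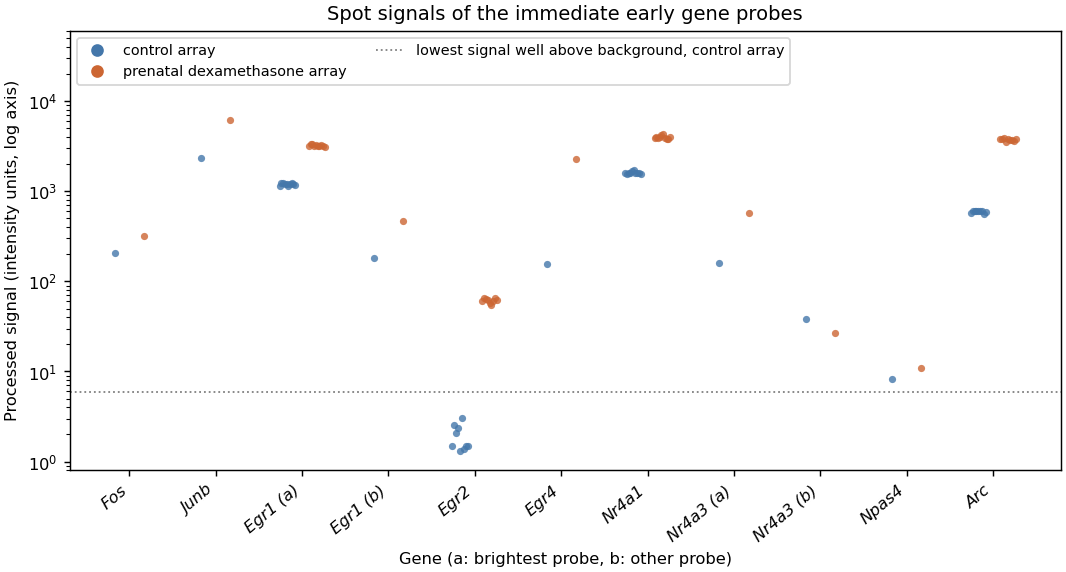
Processed signal (log axis) of each probe in the control array (blue) and the prenatal dexamethasone array (orange), with 1 point per spot, and the dotted line at 5.86, the lowest signal well above background in the control array. The spots of Egr1 (a), Nr4a1 and Arc form separate groups on the 2 arrays, Egr2 lies under the line in the control array, and Nr4a3 (b) alone is lower in the dexamethasone array.

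The AP-1 members were followed first. AP-1 is a dimer of a Fos and a Jun protein that binds many later genes. Fos, the partner most used to map active neurons (probe at rn4 chromosome 6, 109561941 to 109562000), had a signal of 207 (control) and 317 (dexamethasone), on 1 spot each. This is a difference of 0.54 (1.45-fold), inside the 2-fold range. Fos has no repeated spots, but for 206 repeated probes of like signal the difference varied between spots by a median SD of 0.060. Junb, a Jun protein that pairs with Fos (chromosome 19, 24833225 to 24833284), read 2333 in the control array against 6172, also on 1 spot each, which is 2.51-fold higher (log2 difference 1.33). Fos and Junb thus lay apart, by 0.54 against 1.33, although both are AP-1 genes.

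The Egr genes encode zinc finger factors that bind GC-rich sites. Egr1, used like Fos to map activity and needed for lasting synaptic change, was read by a pair of probes. On its brighter probe (rn4 chromosome 18, 27347173 to 27347232), the 10 control spots ran from 1146 to 1248 with a median of 1204, and the 10 dexamethasone spots ran from 3149 to 3322 with a median of 3223. The spot groups did not overlap, and all 10 spot pairs were higher in the dexamethasone array, by 1.32 to 1.42. The difference was 1.35 (2.55-fold), with a spot SD of 0.029. Its other probe (27346058 to 27346117), which begins 1115 bases lower on the chromosome, read 181 against 473 and gave 1.31. The 2 probes therefore differed by less than 0.06, the median spot SD at the dimmer probe's signal (217 probes), although that probe was at 0.99 with normexp background correction.

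Egr4 had the largest difference of the 8. Its signal was 156 (control) and 2305 (dexamethasone), on 1 spot each, which is 14.1-fold higher (3.81; rn4 chromosome 4, 119765289 to 119765348). It ranked 23rd from the highest of the 14177 genes. Repeated probes of like signal had a median spot SD of 0.046 (341 probes).

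Egr2, a factor also known from myelinating Schwann cells, could be read on the dexamethasone array alone (rn4 chromosome 20, 21883940 to 21883999). Its 10 control spots lay between 1.31 and 3.01, with a median of 1.79, and 0 of 10 were well above background. Its 9 usable dexamethasone spots lay between 55.1 and 65.2, with a median of 61.4, and 10 of 10 were well above background (the one left out has an outlier mark). Against the lowest signal that passed in the control array, 5.86, Egr2 was at least 9.89-fold higher. This bound rests on the background subtraction: before it, the mean spot signal was 61.2 against 125, and the scaled difference was 0.95.

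The Nr4a genes encode orphan nuclear receptors that act without a known hormone. Nr4a1, also called Nur77, takes part in the control of the stress hormone genes Crh and Pomc (rn4 chromosome 7, 140020442 to 140020501). Its 10 control spots ran from 1562 to 1742 (median 1594) and its 10 dexamethasone spots from 3783 to 4315 (median 3947). The groups of spots did not overlap, and all 10 pairs were higher, by 1.17 to 1.27. Nr4a1 was 2.35-fold higher (log2 difference 1.23, spot SD 0.032). It lay nearer to the 2-fold line than the other 5 members past it.

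Nr4a3 was read by probes that disagreed. The brighter probe, which the files assign to transcript variant 1 (rn4 chromosome 5, 64753210 to 64753269), read 160 in the control array against 568, 3.37-fold higher (1.75). The dimmer probe, assigned to variant 2 (64727357 to 64727416), read 38.6 against 26.5, a difference of -0.62. The probes lie 25793 bases apart on rn4, and each had 1 spot. At the dimmer probe's signal the median spot SD was 0.18 (88 probes), and its difference was -0.30 with normexp and -0.27 without background correction. With the 2 probes averaged Nr4a3 left the 2-fold group, and 5 of 8 members remained in it. The first 30 bases of each 60-base probe are given here because these probes decide the value of Nr4a3.
Nr4a3 brighter probe: tggccgttttgctaagactcaaactttgaa
Nr4a3 dimmer probe: ttgggttctcctgcatttagatagctctac

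Npas4, a factor of the PAS family that is nearly specific to neurons and answers to calcium, was close to the limit of detection (rn4 chromosome 1, 207598453 to 207598512). Its signal was 8.28 (control) and 11.0 (dexamethasone), on 1 spot each. The difference of 0.33 was smaller than 0.36, the median spot SD of 53 repeated probes of like signal, and it was -0.016 with normexp and -0.0066 without background correction. No difference in Npas4 was detectable at this signal.

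Arc, the one member here that is no transcription factor, encodes a protein that removes AMPA receptors from synapses and can form virus-like capsids. Its 10 control spots ran from 567 to 627 (median 609) and its 9 usable dexamethasone spots from 3558 to 3913 (median 3776), so the spot groups were far apart (rn4 chromosome 7, 112772025 to 112772084). All 9 usable pairs were higher, by 2.46 to 2.63. Arc was 5.92-fold higher (log2 difference 2.56, spot SD 0.053), second to Egr4 among the 8 and 69th of all genes. Its probe begins with these 30 bases, shown because Arc has the largest difference among members with repeated spots that were well above background on both arrays.
Arc probe: ctggagatctcaagagtgtggctatcccct

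**Figure D2:**
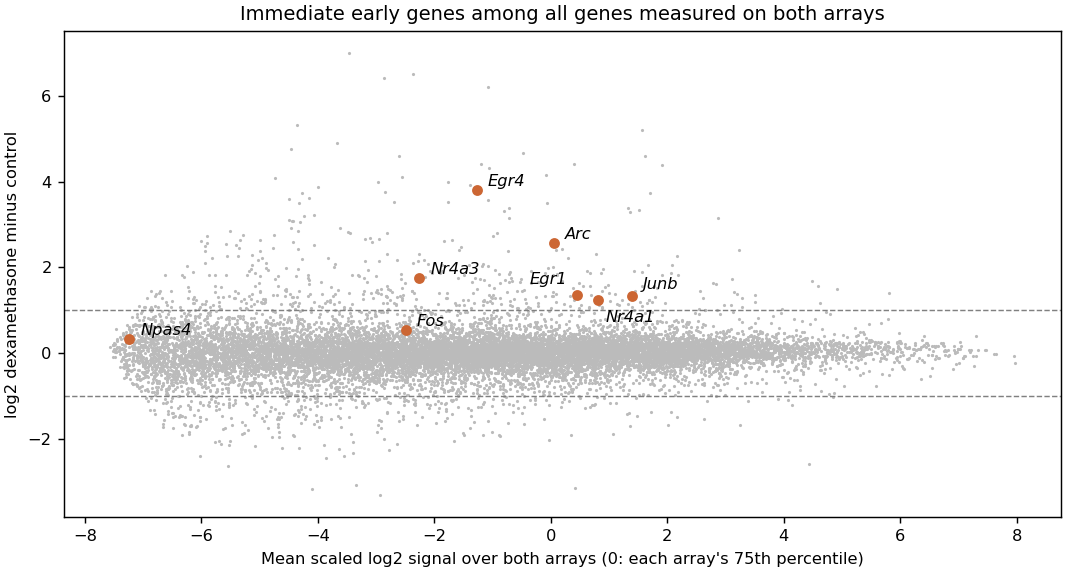
Difference between arrays (log2, dexamethasone minus control) against mean scaled signal for all 14177 genes (grey) and the 8 measured members (orange), with dashed lines at 2-fold. Egr4 and Arc lie highest, Junb, Egr1, Nr4a1 and Nr4a3 lie above the upper line, and Fos and Npas4 lie between the lines, with Npas4 at the dim end.

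The 3 member probes with 10 spots that were well above background on both arrays (Egr1, Nr4a1 and Arc) gave 29 usable spot pairs, and all 29 were higher in the dexamethasone array. Spots of 1 probe share the RNA and the slide, so their SD says nothing about animals. In the value table that the authors deposited, the members had the same order of signals between arrays as in the scanner files: Arc was at 621 against 3605, Egr4 at 158 against 2226, Egr1 at 1248 against 3103 and Fos at 211 against 311, control first. That table nearly repeats the scanner values after quantile normalization, so the shared order is no independent check.

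**Figure D3:**
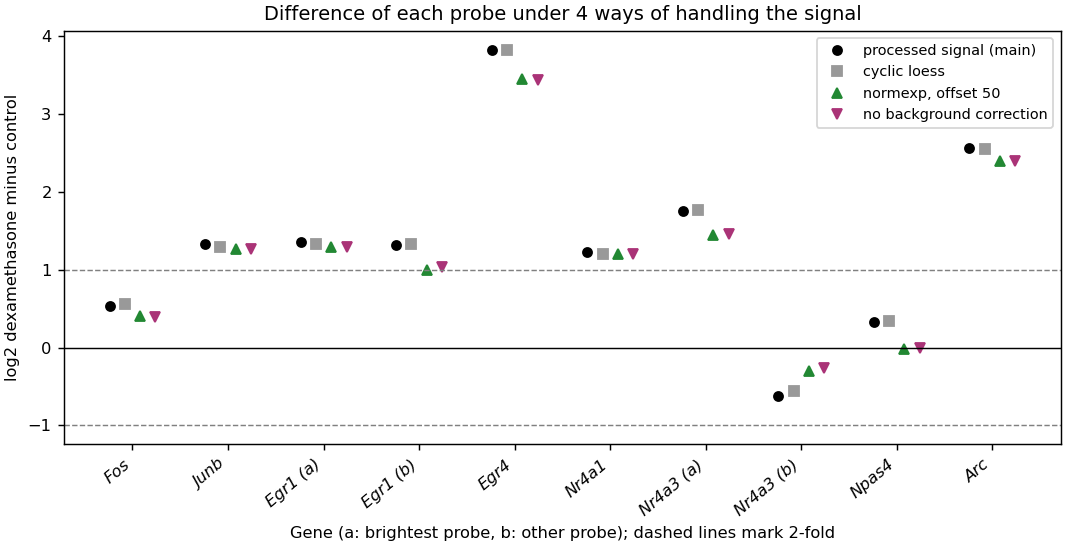
Difference (log2, dexamethasone minus control) of each member probe measured on both arrays under 4 ways of handling the signal, with dashed lines at 2-fold; Egr2 is left out because it was not above background in the control array. The brighter probes of Egr1, Nr4a1, Junb, Egr4, Nr4a3 and Arc stay above the upper line in all 4. With normexp and without background correction, the dimmer Egr1 probe (b) meets the line (0.99 and 1.03) and Npas4 meets 0 (-0.016 and -0.0066).

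Close relatives of the members did not share one direction. Of 7 measured paralogs, 2 were at least 2-fold higher, 0 lower, and 3 were below 0 (median 0.36). For this and each list count below, the shares over all 14177 genes were 3.37% higher and 2.38% lower on the processed signal. With normexp 0 of the 7 passed 2-fold, and the median was 0.09. Nr4a2, also called Nurr1 and needed by dopamine neurons, was at -0.56 on both its probes, with 7031 against 5036 on the brighter. Jun, the partner of Fos that gave the family its name, was at 0.36 (1887 against 2558), and Jund, its steadily expressed relative, at -0.34. Egr3, which acts with Egr1, was dim and at 0.65 (15.4 against 25.5), and at 0.09 with normexp. Fosl2, a Fos relative, was at 1.08 but at 0.16 with normexp, and Npas1 was at 1.03 but at 0.87 with normexp, while Npas2, a clock factor, was at -0.62 on the brighter probe and -0.09 on the other.

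Beyond these families most activity-induced genes lay within 2-fold. Of 44 measured genes of that list 6 passed 2-fold upward and 0 downward (3.37% and 2.38% of all genes did). In the list 18 were below 0, and the median was 0.17 (0.05 with normexp). Plk2, a kinase that scales synapses down, was at 1.73 (333 against 1162), Inhba, the activin subunit, at 1.66 (309 against 1025), and Bdnf, the neurotrophin, at 1.38 (93.6 against 256; 0.93 with normexp). Arl4d, a small GTPase (1.26, but 0.44 with normexp), Dusp5, a phosphatase of ERK (1.17), and Ier5 (1.06) completed the 6. Ptgs2, the inducible cyclooxygenase, was not well above background in the control array (5.70 against 66.0), so its bound was at least 10.68-fold higher. Like that of Egr2, this bound rests on the background subtraction. Homer1, a scaffold of glutamate receptors, was at 0.60, and Dusp1, a phosphatase often used beside Fos, at -0.19. Vgf and Scg2, peptide precursors that neurons induce with activity, were at -0.37 and -0.29, and Sik1, a kinase that restrains CREB coactivators, was lowest at -0.63.

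Among 37 genes that act upstream of the members, 5 passed 2-fold upward (3 with normexp) and 0 downward (median 0.26). They were Ppp3ca, a catalytic subunit of calcineurin (1.91; 1940 against 7709), Camkk2, a kinase of calmodulin kinases (1.74), the NMDA receptor subunits Grin2a (1.66) and Grin2b (1.22, and 0.70 with normexp), and Camk2a, a kinase of excitatory synapses (1.01, and 0.89 with normexp). Ppp3cb, another catalytic subunit of calcineurin, was within 2-fold at 0.40. Among 16 partners and repressors 2 were higher and 0 lower (median -0.05, and -0.15 with normexp). They were Nab2, a repressor that Egr1 induces and that then binds Egr proteins (1.24; 1199 against 2989), and Maf, a leucine zipper factor (1.33, but 0.99 without background correction). Batf3, another leucine zipper factor, was next in size at -0.94 (-0.43 with normexp). Arnt, also of this list but outside the 16 measured, was well above background in the control array alone (14.5 against 5.59). By the bound used for Ptgs2 it was at least 2.09-fold lower. Its signals were dim, and this bound too rests on the background subtraction. Of 8 measured stress genes Hspa1b, an inducible heat shock protein, was higher (1.28, and 0.98 with normexp), and Hspb1 and Atf4 were at 0.39 and -0.36.

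Markers of other regions and cells differed between the same arrays. Of 17 measured genes of cortex and striatum neurons all were above 0 and 12 at least 2-fold higher (median 2.55; 9 of 17 and 1.90 with normexp). Their summed signals above are in units of the array's 75th percentile, and Tbr1 was not well above background in the control array. Fezf2, a factor of deep-layer cortical neurons, was at 5.32 (2.93 with normexp) and Itpka, a kinase of dendritic spines, at 5.19. The striatal signalling genes of the list differed less. Ppp1r1b (0.68), Adora2a (0.68), Drd1 (0.47) and Rgs9 (0.46) were within 2-fold, and Drd2 was at 1.03 (0.51 on its other probe). Itpka, Hpca and Icam5 were the brightest of the list on the dexamethasone array (26502, 25403 and 22321) and so weigh most in its sum. This list was written with earlier results of these arrays known, so its direction is no independent evidence. Of 13 thalamic markers 4 were at least 2-fold lower and 1 higher (median -0.87), with Gbx2 (-1.19), Cacna1g (-1.08) and Lhx2 (1.06) largest. Prkcd, Slc17a6, Calb2 and Tcf7l2 were the brightest of these on the control array (57753, 36830, 28825 and 23665) and so weigh most in the thalamic sum. Of 8 blood cell markers 5 were at least 2-fold higher (median 1.24), and 4 with normexp (median 0.81), where S100a8 was at 0.06 in place of 1.07. They were led by the globin genes Hbb-b1 (1.57) and Hbb (2.83-fold higher) and by Alas2 (1.45), and Cd3e was not well above background in the control array. The globin genes Hba-a1, Hbb and Hbb-b1 were by far the brightest of the list (135163, 75249 and 61386 on the dexamethasone array). The summed signal of blood cell markers is therefore almost entirely theirs. In the same list Ptprc was at -0.02, and S100a9 at 0.45 (0.09 with normexp).

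For the labelled tissue, the hormone genes Avp (3463 against 970), Oxt (1455 against 587) and Crh (230 against 636) were well above background on both arrays. Sim1, a factor that specifies this nucleus, was dim (14.1 against 12.0), and Otp, another, was not well above background in the control array (1.92 against 8.26). Of 11 measured genes of the nucleus 4 passed 2-fold upward and 2 downward, but 2 upward with normexp, where Mc4r was at 0.40 in place of 1.20 and Agtr1a at 0.48 in place of 1.18 (median 0.24, and 0.15 with normexp; Avp -1.91, Sst 1.41, Crh 1.39 the largest). General neuronal genes had a median of 0.22 with 0 of 10 past 2-fold in either direction (Map2 0.60, Nefl 0.38, Rbfox3 0.37). None passed it on the brightest probe among 8 astrocyte genes (median 0.20; Slc1a2 0.75, Gfap 0.73 but 1.14 on its other probe, Slc1a3 0.45), 9 oligodendrocyte genes (0.27; Mobp 0.69, Olig1 0.36, Olig2 0.32), 9 microglial genes (0.01, and -0.02 with normexp; Aif1 0.22, Cx3cr1 0.14, Cd68 -0.14) and 10 vascular genes (-0.04; Pecam1 -0.37, Vwf 0.33, Cdh5 0.28).

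**Figure D4:**
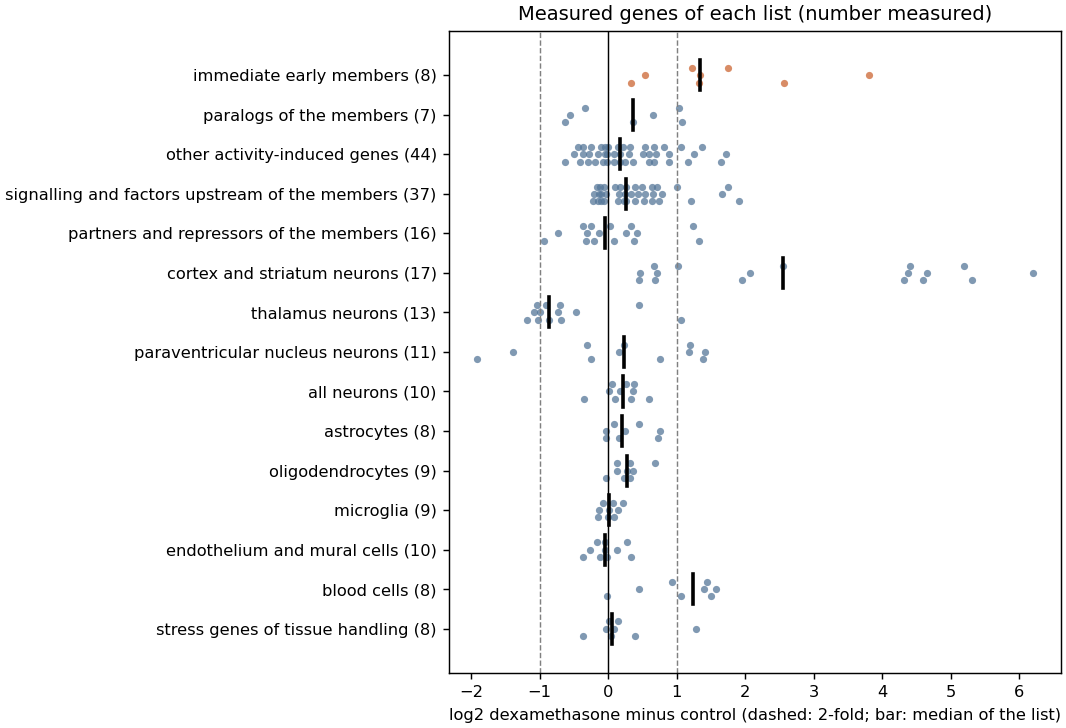
Difference (log2, dexamethasone minus control) of each measured gene in each list, 1 point per gene, with the list median as a bar, the number measured in brackets and dashed lines at 2-fold. The immediate early genes (orange) have a median of 1.34, the cortex and striatum list 2.55, the blood list 1.24 and the thalamic list -0.87, while the glial, vascular and general neuronal lists sit near 0.

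Facts of the arrays bear on all of these values. Apart from controls there were 30367 probes in 42877 spots, and 79.5% (control) and 78.2% (dexamethasone) of the probes were well above background, with 0 saturated spots. Both arrays shared a slide but not a position on it, and what is due to position cannot be told apart from what is due to group. The number of arrays limits the precision.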

How the data were processed

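Total RNA was labelled with Cy3 after amplification by a low-input kit and hybridised to 1-colour Agilent arrays, per the labels' protocols. The scans were read by Feature Extraction 10.7.1.1, with probe positions on rn4, per the file headers; version 9.5.1.1 stands in the submitters' processing notes. The deposited intensity is background-subtracted and detrended within each array by that software. The authors' value table is a linear intensity, and both columns have a median of 149.9. Sorted, its columns differ by at most 0.0236% above a value of 10. The scale behind that median is not known. The table's differences nearly repeat those of the scanner values after quantile normalization (493 genes at least 2-fold higher and 333 lower in both). Its match to the scanner values (r = 0.996 between the differences, across probes) is therefore no independent check.

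Spots with outlier marks (267 control, 249 dexamethasone) were left out. Repeated spots were averaged as log2 intensity, and each array's 75th percentile over non-control probes was subtracted. A probe counted as well above background where most of its spots did. A gene took its brightest probe well above background on both arrays. Genes were named through RefSeq (GRCr8, names alone) by accession (18006 probes), current symbol (2654) or older symbol (559), and 9148 other probes stayed out of gene counts. For a gene detected in 1 array, the bound divides its scaled value by the lowest passing value of the other array, or by the probe's own there if that is higher. The code was checked on simulated data. The alternatives were other scalings, normexp (offset 50; limma 3.58.1 in R 4.3.3), no background correction, the value table, other spot, probe and filter rules, and other fold sizes.

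Every member and probe is named; in other lists, the 3 largest differences are named, except 1 that is not reported here, and the choice of further genes followed their values. The members and lists were chosen with earlier results of these data known. With 1 array per group there is no test and no p-value.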

Additional observations from a re-analysis of the deposited data

How the results depend on the processing

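Of 80 comparisons (10 member probes under 8 other settings), 50 moved by less than a tolerance, 28 moved further with the same sign, and 2 turned: Npas4 was at -0.016 with normexp and -0.0066 without background correction. The tolerance was the probe's own spot SD, or for probes with 1 spot 0.041, the median spot SD of all repeated probes, which is below that of dim probes such as Npas4 and the second Nr4a3 probe. Part of the 50 was fixed in advance, so that count is no measure of stability. The 7 probes with 1 spot could shift only by a constant under other spot rules. Scaling to the median of detected probes moved every probe by the same 0.018. The value table nearly repeats quantile normalization (Junb 1.28 in both). The count of members at least 2-fold higher stayed at 5 to 7 under every setting but the 4-fold rule, which left 2. The members' median was 1.28 with normexp, 1.28 without background correction and 1.28 with probes averaged, against 1.34. Of 111 genes of the other lists (stress genes included, markers left out) 16 were at least 2-fold higher, but 9 with normexp and 8 without background correction; 0 were lower, and 1 was lower with no filter on dim probes. Of all genes, 478 passed 2-fold upward and 338 downward, against 283 and 130 with normexp, 279 and 133 without background correction and 870 and 732 of 17573 with no filter. Dim signals limit Npas4, Egr2 and the second Nr4a3 probe. No paired analysis was possible because each group had 1 array, which also leaves no replicate to leave out.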

Other observations

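The promoter motifs were also read over all measured genes. Of 3022 measured genes with a CRE core in the 250 bases before the start, 2.48% passed 2-fold upward, and of 135 with a CArG box 4.44% did, against 3.09% of 11556 measured genes with a promoter in the RefSeq table. Of 40 genes with both motifs 4 were at least 2-fold higher, Egr1 among them, and 1 was at least 2-fold lower. Without the members, 2.35% of 3018 genes with a CRE core and 3.73% of 134 with a CArG box passed 2-fold upward. Of 39 with both motifs, 3 did. These shares describe the 2 arrays, and no test was made.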
